A study of Homo sapiens with 16 samples.

Results

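The 10 genes described here encode the machinery that adds phosphate to the translation initiation factor eIF2, removes it, and reads it. They are the 4 eIF2alpha kinases (EIF2AK1, EIF2AK2, EIF2AK3, EIF2AK4), the 2 regulatory subunits of the eIF2alpha phosphatase (PPP1R15A, PPP1R15B), eIF2alpha itself (EIF2S1) and 3 of the subunits of the exchange factor eIF2B (EIF2B1, EIF2B4, EIF2B5). They were chosen by name from the 25369 genes of the count table, with no measured value in the rule, and all 10 passed the filter on low counts in both cell lines. The libraries are strand-specific, polyadenylated RNA-seq of TPC1 and K1, human papillary thyroid carcinoma lines grown in RPMI and DMEM respectively. For 24 h, cells of each line received nutlin at 10 µM, GSK2830371 at 25 µM, both together at these doses (the combination), or only the vehicle, 0.2% DMSO. Nutlin (nutlin-3a) blocks MDM2, the ubiquitin ligase that holds p53 down, and GSK2830371 inhibits the phosphatase PPM1D, another p53 repressor. Each of the 8 groups holds 2 libraries, which makes 16 in all. The study's methods describe its replicates in general as independent preparations, while the labels name no cultures. The p values measure the spread between these libraries, after each gene's estimate of it is drawn toward a trend over all genes tested.

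As background, eIF2 brings the initiator transfer RNA to the ribosome, and it must be recharged with GTP by eIF2B after every round. A kinase that phosphorylates eIF2alpha turns eIF2 into an inhibitor of eIF2B, so that general translation slows while a few messages, ATF4 among them, are translated better; this is the integrated stress response. Each kinase senses a different stress. The phosphatase subunits recruit protein phosphatase 1 to eIF2alpha, PPP1R15B at steady state and PPP1R15A as a stress-induced brake. All of this signalling runs through protein phosphorylation, whereas the values here are messenger RNA levels.

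Library totals ran from 28888686 to 37161241 counts in K1 and from 30789887 to 76648552 in TPC1, and the 10 genes had between 542 and 13988 counts in every library. In TPC1 the 4 libraries numbered 1 held at most 36896529 counts and the 4 numbered 3 at least 62853375, so depth and replicate number go together in that line. Levels are given in CPM, counts scaled to the library total, which cannot show a change in total RNA per cell, and a change in every cell cannot be told apart from a change in part of the cells. The thyroid factors PAX8 (280 to 841 CPM) and FOXE1 (22.0 to 38.1 CPM) were present in all libraries, while TSHR was at 0 throughout and SLC5A5 and NKX2-1 did not pass 0.640 CPM. Summed markers of leukocytes, endothelium and fibroblasts did not pass 5.94 CPM in any library. As a check of the drugs, the p53 targets CDKN1A, MDM2 and PPM1D were called higher under nutlin and under the combination in both lines, with log2 fold changes of 0.99 to 6.47.

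A gene was called changed in a comparison when edgeR's quasi-likelihood F test gave an adjusted p below 0.05 and its fold change passed 1.5, and the share of all tested genes called in the same direction is given beside the counts. In TPC1, nutlin raised 1 of the 10 genes (17.5% of all genes) and lowered 2 (18.0%), GSK2830371 raised 1 (0.720%) and lowered none (0.681%), and the combination raised 1 (22.5%) and lowered 2 (21.7%). Against nutlin alone, the combination raised 1 in TPC1 (6.46%) and lowered none (5.66%). In K1, neither nutlin (3.84% raised, 5.43% lowered) nor GSK2830371 (0.736% and 1.5%) nor the combination against nutlin (1.16% and 1.52%) had a member called, and DESeq2 called none either. In the edgeR test 4, 5 and 6 of the 10 reached an unadjusted p under 0.05 there. The share of all genes at that unadjusted p was not counted, so such counts, here and below, are not read as a result. The combination against DMSO raised 2 in K1 (7.62%) and lowered none (8.09%). The interaction, which is the log2 change under both drugs less the sum of the changes under each, had no member called in TPC1 (2.82% positive, 3.50% negative) with 2 at an unadjusted p under 0.05 and 1 called by DESeq2, and none in K1 (1.79% and 0.654%) with 3 at an unadjusted p under 0.05 and none called by DESeq2. The median log2 change of the 10 genes was -0.22, 0.01 and -0.31 under nutlin, GSK2830371 and the combination in TPC1, and -0.02, 0.08 and 0.05 in K1, where the median of all genes lay between -0.01 and 0.02 in these 6 comparisons. The 3 comparisons with DMSO share its libraries, and the comparison with nutlin shares the combination libraries.

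**Figure D1:**
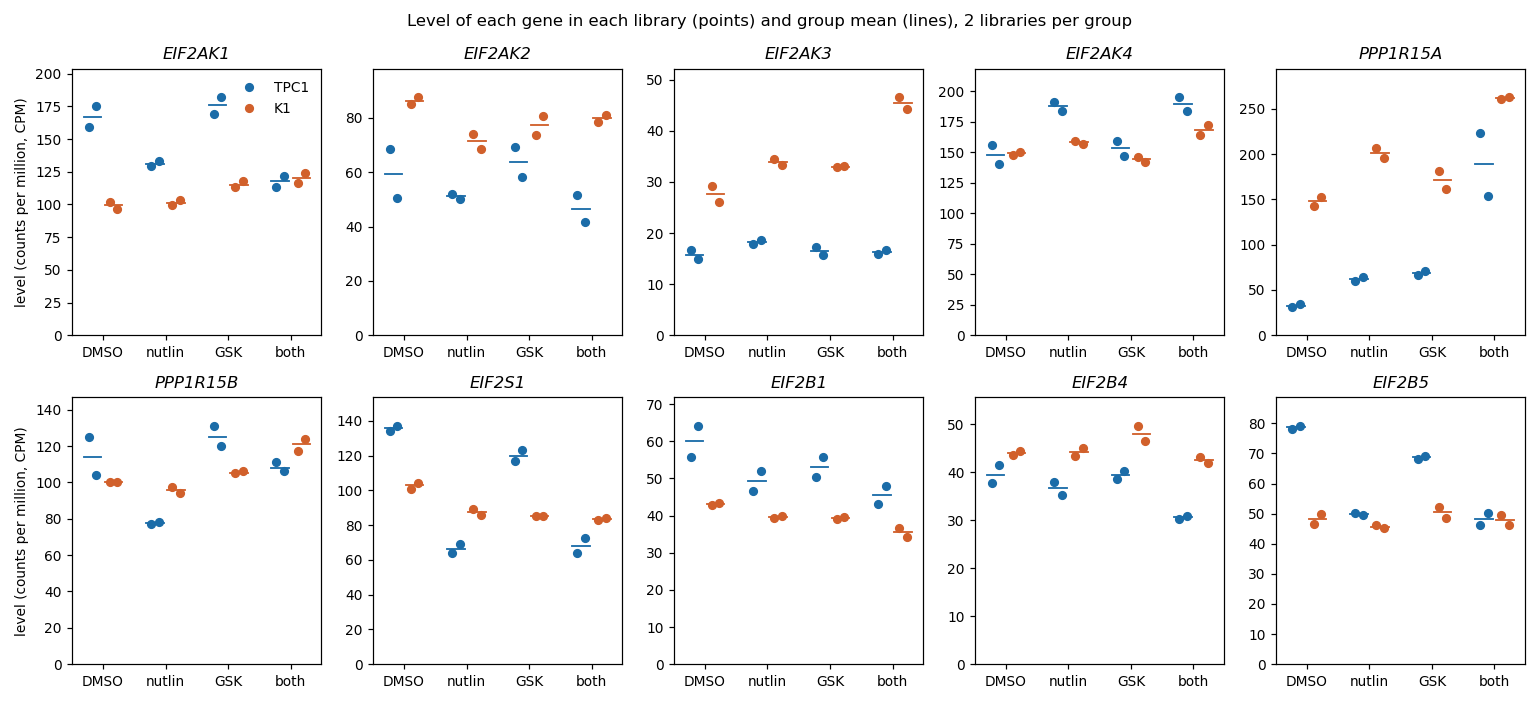
Level of each of the 10 genes in CPM (vertical axis, from 0) by treatment (horizontal axis; GSK is GSK2830371, both is the combination), with 1 point per library and a line at the mean of 2, TPC1 in blue and K1 in orange. PPP1R15A climbs from 30.8 and 34.7 CPM under DMSO to 223 and 154 CPM under the combination in TPC1, while EIF2S1 falls to between 63.9 and 72.3 CPM under nutlin with or without GSK2830371.

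PPP1R15A, the stress-inducible phosphatase subunit also known as GADD34, was the only member called in every within-line comparison that called any. The gene lies on chromosome 19 at 49375469 to 49379316 of GRCh37, plus strand, with 3 exons in its canonical transcript. In TPC1 it stood at 30.8 and 34.7 CPM under DMSO, 60.4 and 64.5 CPM under nutlin, 66.1 and 71.1 CPM under GSK2830371, and 223 and 154 CPM under the combination. No groups overlapped, and the single drugs gave values close to each other. These levels correspond to log2 fold changes against DMSO of 0.96 ± 0.15 for nutlin (SE; adjusted p = 0.000533), 1.02 ± 0.15 for GSK2830371 (adjusted p = 0.0157) and 2.57 ± 0.16 for the combination (adjusted p = 8.11e-07), the last a 5.95-fold difference. Both drugs together left it 3.05-fold above nutlin alone (log2 1.61 ± 0.15, adjusted p = 0.000168). Among the 10 genes it was the only one that GSK2830371 alone changed in TPC1, and this call was lost without DMSO library 1 (log2 0.93, adjusted p = 0.0561), GSK2830371 library 1 (1.07, adjusted p = 0.0790) or GSK2830371 library 3 (0.96, adjusted p = 0.138).

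Whether both drugs raised PPP1R15A beyond the sum of their separate effects in TPC1 depended on the fit. The interaction was 0.60 ± 0.21 on the log2 scale with an adjusted p of 0.118, and the pair of combination libraries lay further apart than those of any other group. With the replicate number as a block the value was 0.59 and the adjusted p 0.0166, and DESeq2 gave 0.61 with an adjusted p of 0.0365. Without combination library 3, the lower of the pair, it was 0.83 (adjusted p = 0.0204), and without combination library 1 it was 0.32 (adjusted p = 0.189).

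In K1, PPP1R15A started higher and moved less. Its level was 143 and 153 CPM under DMSO, 207 and 196 CPM under nutlin, 181 and 161 CPM under GSK2830371, and 261 and 263 CPM under the combination. Every treated library exceeded both DMSO libraries, and the combination stood above all others. The combination raised it by a log2 of 0.79 ± 0.06 (1.73-fold, adjusted p = 2.36e-07). For nutlin the log2 difference was 0.46 ± 0.06 (adjusted p = 8.14e-05) and for GSK2830371 0.21 ± 0.06 (adjusted p = 0.0284), both short of 1.5-fold. The GSK2830371 difference ran from 0.08 to 0.30 over the alternative fits, with an adjusted p of 0.413 after a correction for GC content and length, 0.461 when the replicate block was added to it and 0.277 without GSK2830371 library 1. The K1 interaction of 0.12 had a 95% interval of -0.07 to 0.31.

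PPP1R15B, the constitutive phosphatase subunit (also called CReP; chromosome 1, 204365620 to 204381015, minus strand), followed another course. In TPC1 it read 125 and 104 CPM under DMSO, 77.3 and 78.2 CPM under nutlin, 131 and 120 CPM under GSK2830371, and 111 and 106 CPM under the combination. Nutlin alone gave the low values, and with GSK2830371 added the level lay back in the DMSO range. The log2 difference was -0.52 ± 0.09 for nutlin against DMSO (adjusted p = 0.00117) and 0.50 ± 0.09 for the combination against nutlin (adjusted p = 0.00493), neither of which reached 1.5-fold, while the combination against DMSO was -0.02 with a 95% interval of -0.23 to 0.19. Without DMSO library 3 the nutlin difference was -0.62 and was called. In K1 its level was 100 CPM in both DMSO libraries, 97.3 and 94.4 CPM under nutlin, 105 and 106 CPM under GSK2830371, and 117 and 124 CPM under the combination. The last group was above all others, at a log2 of 0.23 ± 0.05 over DMSO (adjusted p = 0.00200) and 0.29 ± 0.05 over nutlin (adjusted p = 0.00285), again within 1.5-fold.

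The balance of the inducible and the constitutive subunit thus shifted with treatment. Per kilobase of the gene's exon union, PPP1R15A stood at 0.672 and 0.905 times PPP1R15B in the TPC1 DMSO libraries, 2.12 and 2.24 times under nutlin, 1.38 and 1.62 times under GSK2830371, and 5.50 and 3.95 times under the combination. In K1 it was already at 3.89 and 4.14 times under DMSO, and stood at 5.78 and 5.65 times under nutlin, 4.67 and 4.13 times under GSK2830371, and 6.06 and 5.75 times under the combination. The K1 combination values thus overlapped those of nutlin alone, and the GSK2830371 values overlapped DMSO. With the longest transcript as the length, the TPC1 ratios were 0.400 and 0.538 under DMSO and 3.27 and 2.35 under the combination, so the inducible subunit was the lower of the pair in untreated TPC1 and the higher of the pair under the combination by both lengths. Per kilobase PPP1R15A was also the highest of the 10 genes in every combination library of both lines, by either length. In K1 it already held that rank in both DMSO libraries, whereas in TPC1 under DMSO it did not.

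The promoters of the phosphatase subunits are shown because PPP1R15A changed most and because both hold letters that factors of the ATF and CREB family are known to bind. In the 250 bases before the RefSeq start (table of GRCh38.p14, with 9 of the 10 genes matched and EIF2AK1 not among them), TGACGTCA, the cAMP response element, TGACGT, its shorter form, and TGATGNAA, the composite element of ATF and C/EBP factors, were searched on both strands. Among 35116 promoters TGACGTCA occurred in 1.65%, TGACGT, which also lies within the longer form, in 7.10%, and TGATGNAA in 3.14%. Of the 9 genes PPP1R15A alone held TGACGTCA, PPP1R15A and PPP1R15B held TGACGT, and PPP1R15B alone held TGATGNAA. The 30 bases around each match, 5′ to 3′ on the gene's strand with the motif in capitals, were placed on GRCh37 at chr19:49375609-49375638 (plus, first motif base 58 before the start), chr19:49375514-49375543 (plus, 152 before), chr1:204381029-204381058 (minus, 101 before) and chr1:204381154-204381183 (minus, 227 before), in that order.
PPP1R15A, TGACGTCA: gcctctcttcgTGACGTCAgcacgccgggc
PPP1R15A, TGACGT: gaaactccgccgTGACGTtgcaaaagctgg
PPP1R15B, TGACGT: ggattttgcgagTGACGTtgggcggcgcgg
PPP1R15B, TGATGNAA: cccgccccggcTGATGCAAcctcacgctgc
The RefSeq start of PPP1R15A lies downstream of the start of the gene span given above, so both of its windows fall within that span. A match describes letters only, and binding was not measured in these libraries.

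**Figure D2:**
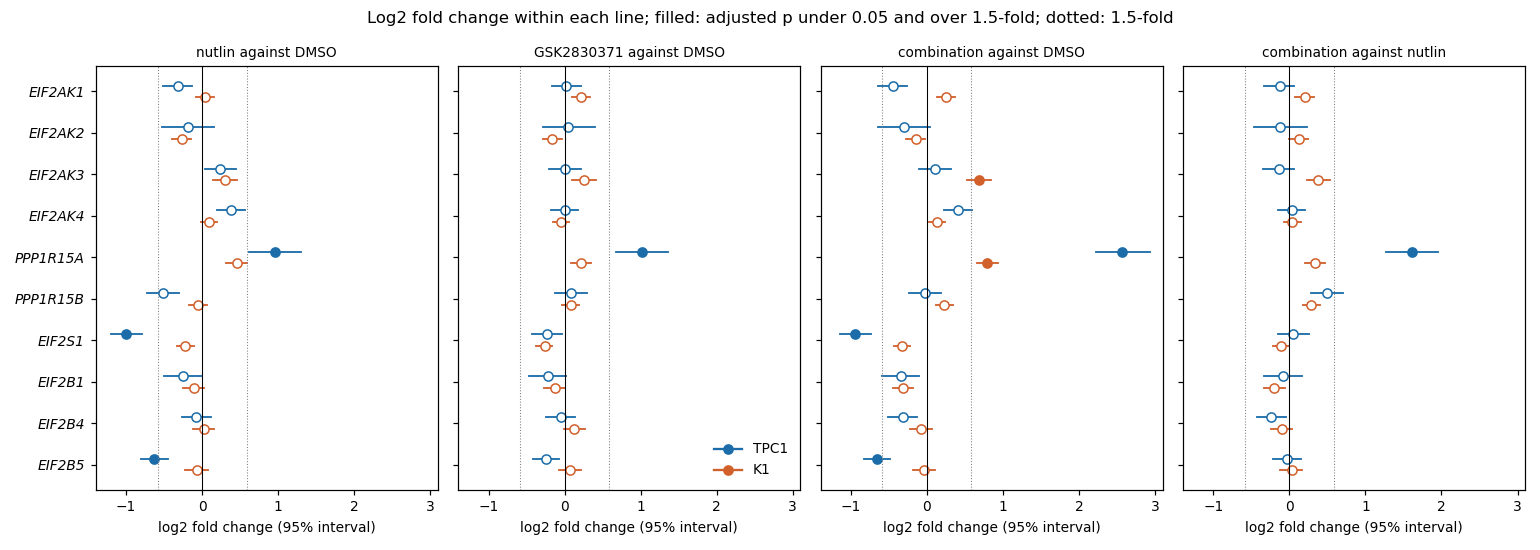
Log2 fold change of each gene (vertical axis) in 4 comparisons (panels), with its 95% interval as a line, TPC1 in blue and K1 in orange; filled points are called and dotted lines mark 1.5-fold. PPP1R15A under the combination in TPC1 (2.57) stands apart from the other points, EIF2S1 and EIF2B5 are filled on the left side in TPC1 only, and EIF2AK3 is filled in K1 under the combination only.

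Among the kinases, 1 call was made in all within-line comparisons, that of EIF2AK3 in K1. EIF2AK3 (PERK; chromosome 2, 88856259 to 88991036, minus strand) sits in the endoplasmic reticulum membrane and responds to unfolded proteins there. In K1 it read 29.3 and 26.1 CPM under DMSO, 34.5 and 33.3 CPM under nutlin, 32.9 and 33.1 CPM under GSK2830371, and 46.6 and 44.3 CPM under the combination. Each drug lifted both libraries above DMSO and the combination lifted them further, with log2 differences of 0.30 ± 0.07 (adjusted p = 0.00635), 0.26 ± 0.07 (adjusted p = 0.0244) and 0.68 ± 0.07 (1.60-fold, adjusted p = 4.09e-06), the last called. The combination exceeded nutlin by 0.38 ± 0.07 (adjusted p = 0.00387). The GSK2830371 difference passed an adjusted p of 0.05 by little, with 0.0531 in DESeq2 and 0.234 without DMSO library 2, where nutlin gave 0.0978. In TPC1 the same gene stayed between 14.9 and 18.6 CPM in all 8 libraries, with a log2 difference of 0.24 ± 0.09 for nutlin (adjusted p = 0.0465, and 0.102 in DESeq2) and 0.10 for the combination (95% interval -0.11 to 0.31).

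EIF2AK1 (HRI; chromosome 7, 6061878 to 6098806, minus strand), the kinase that senses heme and mitochondrial stress, differed from DMSO in opposite directions in the lines, within 1.5-fold in both. In TPC1 it read 159 and 175 CPM under DMSO, 129 and 133 CPM under nutlin, 169 and 182 CPM under GSK2830371, and 113 and 122 CPM under the combination. Both groups with nutlin lay below both without it, by a log2 of -0.32 ± 0.09 (adjusted p = 0.0112) and -0.45 ± 0.09 (adjusted p = 0.00142) against DMSO. In K1 it read 102 and 96.7 CPM under DMSO, 99.9 and 103 CPM under nutlin, 113 and 118 CPM under GSK2830371, and 116 and 124 CPM under the combination. Here both groups with GSK2830371 lay above both without it, by 0.22 ± 0.06 (adjusted p = 0.0134) and 0.25 ± 0.06 (adjusted p = 0.00269) against DMSO. EIF2AK1 has 1 named pseudogene in the annotation, and its exons overlap AIMP2 on the other strand, which the strand-specific counting separates.

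EIF2AK4 (GCN2; chromosome 15, 40226316 to 40327792, plus strand) responds to uncharged transfer RNA when amino acids run short. TPC1 held 156 and 140 CPM under DMSO, 191 and 184 CPM under nutlin, 159 and 147 CPM under GSK2830371, and 195 and 184 CPM under the combination. The groups with nutlin were the higher ones, at 0.38 ± 0.08 (adjusted p = 0.00335) and 0.41 ± 0.08 (adjusted p = 0.00174) on the log2 scale, within 1.5-fold. In K1 all libraries lay between 142 and 172 CPM, and the combination differed from DMSO by 0.13 ± 0.05 (adjusted p = 0.0435, and 0.0759 in DESeq2).

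EIF2AK2 (PKR; chromosome 2, 37326353 to 37384665, minus strand), which senses double-stranded RNA, read 68.4 and 50.4 CPM in the DMSO libraries of TPC1. Its TPC1 differences from DMSO were -0.18, 0.05 and -0.30 under nutlin, GSK2830371 and the combination, each with an interval that spans 0, for the combination from -0.64 to 0.04. In K1 it read 85.1 and 87.6 CPM under DMSO and 74.1 and 68.7 CPM under nutlin, a difference of -0.26 ± 0.06 (adjusted p = 0.00408). Under the combination K1 held 78.5 and 81.2 CPM, between those groups.

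Levels of different kinases can be set side by side only per length, and the length matters: the exon union of EIF2AK3 measures 20691 bases against 4724 for its longest transcript. Of the summed CPM per kilobase of the 4 kinases, EIF2AK1 made up 59.1% and 65.3% in the TPC1 DMSO libraries by exon union, EIF2AK4 26.6% and 23.9%, EIF2AK2 12.6% and 9.36%, and EIF2AK3 1.64% and 1.47%. By longest transcript the same shares were 48.4% and 54.3%, 37.8% and 34.5%, 9.07% and 6.83%, and 4.71% and 4.31%, so the order held in TPC1 under DMSO. Under the combination it did not: EIF2AK1 led in TPC1 by exon union (48.7% and 52.8%, against 38.4% and 36.4% for EIF2AK4), and EIF2AK4 led by longest transcript (50.8% and 48.4%, against 37.0% and 40.4% for EIF2AK1). Across treatments within TPC1, the EIF2AK1 share was lower in every library with nutlin than in every library without it, by either length. In K1 under DMSO, EIF2AK1 had 46.2% and 44.7% by exon union and 35.7% and 34.6% by longest transcript, against 30.9% and 31.9% and then 41.6% and 42.9% for EIF2AK4, so which kinase led there depended on the length. EIF2AK3 went from 9.63% and 8.74% under DMSO to 13.4% and 12.3% under the combination in K1 by longest transcript.

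**Figure D3:**
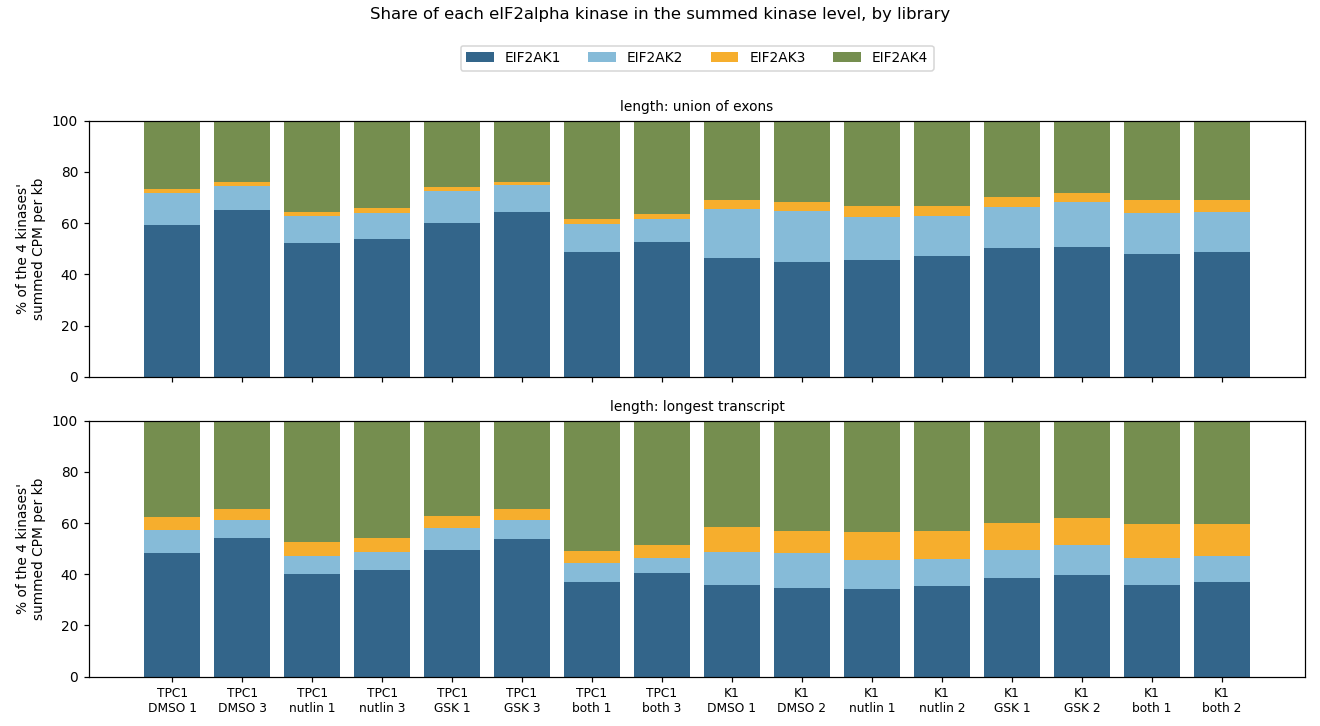
Share of each eIF2alpha kinase in the summed level of the 4 (percent of summed CPM per kilobase, vertical axis) in each of the 16 libraries (horizontal axis, with replicate number), using the exon union as the length above and the longest transcript below. EIF2AK1 is the largest part in the TPC1 DMSO libraries by both lengths, and the EIF2AK3 part is wider in K1 than in TPC1.

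EIF2S1 encodes eIF2alpha, the subunit that the kinases phosphorylate (chromosome 14, 67827045 to 67853233, plus strand). In TPC1 it read 134 and 137 CPM under DMSO, 64.0 and 69.1 CPM under nutlin, 117 and 123 CPM under GSK2830371, and 63.9 and 72.3 CPM under the combination. The 4 libraries with nutlin were all below the 4 without, and adding GSK2830371 to nutlin made no difference beyond the spread (log2 0.05, 95% interval -0.15 to 0.26). Nutlin lowered it by a log2 of -0.996 ± 0.09 (adjusted p = 1.48e-05) and the combination by -0.94 ± 0.09 (1.92-fold, adjusted p = 1.5e-05). In K1 it read 101 and 104 CPM under DMSO, 89.2 and 86.1 CPM under nutlin, 85.0 and 85.4 CPM under GSK2830371, and 83.2 and 84.1 CPM under the combination. All treated K1 libraries were below DMSO, by a log2 of -0.22 to -0.33 (adjusted p = 0.00475, 0.00312 and 0.000131), within 1.5-fold. With the correction for GC content and length the nutlin difference was -0.10 (adjusted p = 0.180) and the GSK2830371 difference -0.03 (adjusted p = 0.735), so neither held in that fit.

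The eIF2B subunits differed among themselves. EIF2B5 encodes the catalytic epsilon subunit (chromosome 3, 183852826 to 183863915, plus strand), and in TPC1 it read 78.2 and 79.1 CPM under DMSO, 50.1 and 49.6 CPM under nutlin, 68.2 and 69.1 CPM under GSK2830371, and 46.1 and 50.2 CPM under the combination. Like EIF2S1 it was low wherever nutlin was present, at -0.63 ± 0.08 (1.54-fold, adjusted p = 0.000134) for nutlin and -0.66 ± 0.08 (1.58-fold, adjusted p = 7.46e-05) for the combination. Both calls lie close to 1.5-fold: with a correction for GC content and length the values were -0.57 and -0.58, and without combination library 1 the latter was -0.58, with adjusted p values still under 0.001 but no call. In K1 EIF2B5 stayed between 45.1 and 52.3 CPM, and its log2 differences from DMSO ran from -0.07 to 0.07 with intervals that span 0.

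EIF2B1, the alpha subunit and one of those that sense phosphorylated eIF2 (chromosome 12, 124104953 to 124118313, minus strand), read 55.8 and 64.1 CPM under DMSO and 43.2 and 48.0 CPM under the combination in TPC1. In K1 it read 42.9 and 43.5 CPM under DMSO and 36.7 and 34.3 CPM under the combination. The combination groups were the lower in both lines, at -0.34 ± 0.11 for TPC1 (adjusted p = 0.0208) and -0.32 ± 0.06 for K1 (adjusted p = 0.00125), within 1.5-fold. Its exons overlap DDX55 and GTF2H3 on the other strand.

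EIF2B4, the delta subunit (chromosome 2, 27587219 to 27593205, minus strand), read 37.7 and 41.4 CPM under DMSO, 37.9 and 35.3 CPM under nutlin, and 30.3 and 30.8 CPM under the combination in TPC1. The combination lay below both other groups, at -0.32 ± 0.08 against DMSO (adjusted p = 0.00846). In K1 it stayed between 41.8 and 49.6 CPM, and no treatment differed from DMSO at an adjusted p under 0.05.

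The lines were compared directly in a fit of all 16 libraries, in which line and culture medium cannot be told apart. Under DMSO, K1 held more PPP1R15A (4.49-fold, log2 2.17 ± 0.13, adjusted p = 2.21e-10) and more EIF2AK3 (1.76-fold, 0.82 ± 0.08, adjusted p = 1.76e-07) than TPC1, 2 of the 10 genes where 25.0% of all genes were called higher. It held less EIF2AK1 (1.69-fold, -0.76 ± 0.08, adjusted p = 4.51e-07) and less EIF2B5 (1.64-fold, -0.71 ± 0.08, adjusted p = 4.95e-07), 2 of the 10 where 21.2% were called lower. EIF2AK4 stood at nearly the same level in both, with a difference of 0.01 (95% interval -0.12 to 0.15). With the GC and length correction, which moved the median of all genes to -0.11 in this comparison, EIF2AK3 was at 0.58 and not called, while EIF2S1 (-0.63) and EIF2B1 (-0.66) were; without TPC1 DMSO library 1, EIF2AK2 (0.74) and EIF2B1 (-0.60) were called as well.

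**Figure D4:**
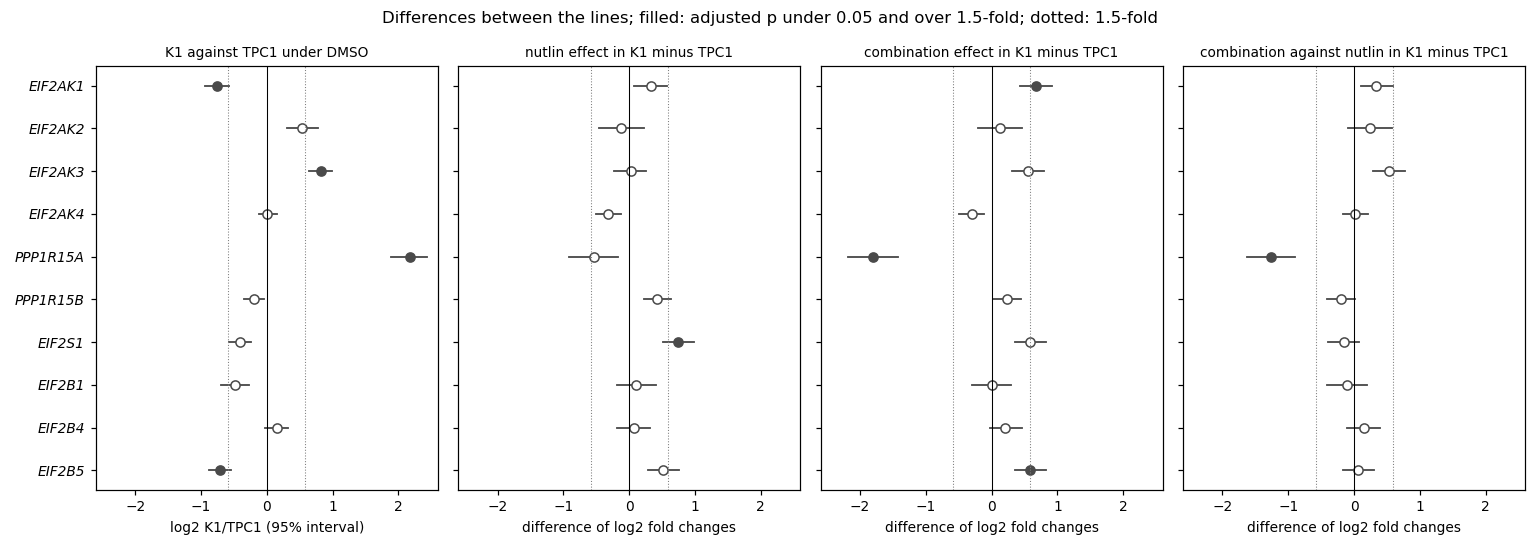
Differences between K1 and TPC1 for each gene (vertical axis): the log2 level ratio under DMSO (first panel) and the difference of log2 fold changes for nutlin, for the combination and for the combination against nutlin (other panels), with 95% intervals; filled points are called and dotted lines mark 1.5-fold. PPP1R15A is higher in K1 at baseline (2.17) and has a smaller response there to the combination (-1.80).

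The response to treatment differed between the lines for a few members. PPP1R15A rose less in K1 than in TPC1 under the combination, by -1.80 ± 0.18 on the log2 scale (adjusted p = 6.31e-07), the only member with a called negative difference where 13.8% of all genes had one. For the combination against nutlin the difference was -1.26 ± 0.17 (adjusted p = 0.000315; 2.56% of genes called negative), and no member was called positive (2.56%). The EIF2S1 response to nutlin was weaker in K1, with a difference of 0.74 ± 0.11 (adjusted p = 8.97e-05), the only member called positive where 8.73% of genes were; none was called negative (10.5%), and PPP1R15A stood at -0.54 ± 0.18 (adjusted p = 0.0271, and 0.0525 with library size alone). Under the combination, 2 members were called positive (11.9% of genes): EIF2AK1 at 0.67 ± 0.12 (adjusted p = 0.000229) and EIF2B5 at 0.59 ± 0.11 (adjusted p = 0.000492). EIF2S1 at 0.58 ± 0.11 (adjusted p = 0.000515) fell just short of 1.5-fold and EIF2B5 just past it, so these neighbours do not differ beyond their errors. EIF2AK3 differed by 0.55 ± 0.12 (adjusted p = 0.00114), also within 1.5-fold. Of 24 alternative fits, 9 called EIF2S1, 4 called EIF2AK3 and 7 did not call EIF2B5.

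Other genes of the pathway were taken from lists of known function, chosen with earlier results of these data known. In the same RNA-seq, the paper's pathway analysis named ATF4 the top predicted regulator of genes raised by the combination over nutlin alone. The counts for the ATF4 list below are thus no independent test. Of 13 genes that ATF4 and its partners are known to switch on or that work beside it, 11 were called higher under the combination against DMSO in TPC1 (22.5% of all genes) and 9 in K1 (7.62%), none lower (21.7% and 8.09%), with a list median of 2.04 and 0.89 on the log2 scale. These included CHAC1, which degrades glutathione (3.57 in TPC1, 2.43 in K1), the transcription factor DDIT3, also known as CHOP (5.35 and 0.89), ATF3 (4.53 and 2.12), ASNS, which makes asparagine (1.75 and 0.71), and ATF4 itself (0.67 and 0.95). DESeq2 called 11 of the list in TPC1 and 8 in K1. In the K1 DMSO libraries ATF3 had only 22 and 48 counts, and ASNS was uneven at 59.0 and 90.9 CPM. Under nutlin alone 6 were called higher (17.5% of all genes) and 3 lower (18.0%) in TPC1, and 1 each way in K1 (3.84% and 5.43%), where SESN2 rose by 1.52 and CHAC1 fell by 1.10. The paper names ATF3 as a target of both p53 and ATF4, and nutlin activates p53. Which factor moved the listed genes was not tested in these libraries. By separate Q-RT-PCR in TPC1, the paper reports several p53 target genes lower after ATF4 knockdown and higher with ATF4 overexpressed. GSK2830371 alone raised 9 of the 13 in TPC1 (0.720% of all genes). In K1 (0.736% raised, 1.5% lowered) edgeR and DESeq2 called none, and 3 had an unadjusted p under 0.05, again with no share of all genes counted. In TPC1, PPP1R15A was thus called in the same direction as most of this list under GSK2830371 and under the combination.

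**Figure D5:**
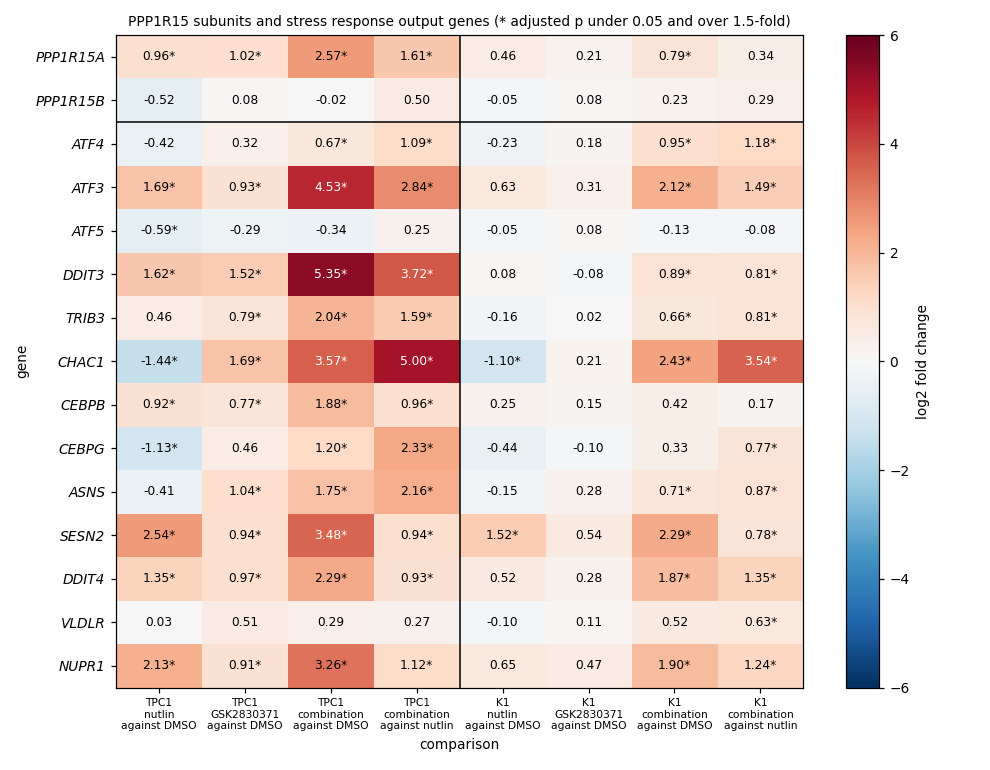
Log2 fold change (colour and printed value; an asterisk marks called) of PPP1R15A, PPP1R15B and the 13 output genes (rows) in 4 comparisons in TPC1 and the same 4 in K1 (columns). DDIT3 reaches 5.35 under the combination in TPC1 and 0.89 in K1, CHAC1 is lower under nutlin in both lines and higher under the combination in both, and PPP1R15B has no call.

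For partners and regulators of the members, the share of all genes called in the same direction again stands in parentheses. Of 9 eIF2 and eIF2B partners, the combination against DMSO lowered 2 in TPC1 (21.7% of all genes) and 1 in K1 (8.09%) and raised none (22.5% and 7.62%). BZW2, a mimic of the initiation factor eIF5, was lowered in both lines (-0.68 in TPC1, -0.60 in K1), and its relative BZW1 was lowered in TPC1 (-1.04). EIF2S2, the beta subunit of eIF2, was called within a line for the combination against nutlin in TPC1 (0.84, where 6.46% of all genes were called higher) and for its interaction (0.70, where 2.82% were called positive). Of 10 regulators of the kinases, 3 rose (22.5% of all genes) and 3 fell (21.7%) under the combination in TPC1, and in K1 1 rose (7.62%) and none fell (8.09%). HSPA5, the chaperone that holds EIF2AK3 inactive, was the one raised in both lines (0.69 in TPC1, 0.66 in K1). Of the 3 catalytic subunits of protein phosphatase 1, with which PPP1R15A and PPP1R15B work, PPP1CC was called lower in TPC1 under nutlin (-0.65, with 18.0% of all genes lower) and under the combination (-0.74, with 21.7% lower), and in K1 its values were -0.30 and -0.39.

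The genes whose levels ran most like those of the 3 most often called members were sought over the 16 libraries, after the mean of each line was subtracted, among 9838 genes. For PPP1R15A they were CAMTA2 (Pearson r = 0.984), NKAP (0.975) and DUSP16 (0.973). For EIF2S1 they were ABCE1 (0.992), RRP15 (0.988) and PNPT1 (0.988), and for EIF2B5 they were SURF6 (0.989), NSUN2 (0.987) and MYBBP1A (0.982). The libraries share lines, treatments and replicate numbers, so these values describe likeness over 8 groups.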

How the data were processed

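The authors sequenced polyadenylated RNA, aligned reads to GRCh37 (hg19) with TopHat2 2.0.13, removed low-quality alignments, and counted them by strand over UCSC exons with HTSeq 0.6.1; the deposited values are raw read counts per gene symbol. Counts were not made again. K1 columns match samples by title. In TPC1, columns numbered 3 meet labels numbered 1 and 2 only, so they were assigned to their group alone. No column was left unused.

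The 10 genes and the pathway lists were chosen with earlier results of these data known. Members were all named; listed genes were given as counts, with values for those called in both lines or needed for a role, and a few others chosen after their values were seen (BZW1, EIF2S2, PPP1CC). Genes above 0.1 CPM in at least 2 libraries were kept (15273 in TPC1, 15900 in K1, 16738 in both). The 8 libraries of a line were fitted together (4 residual degrees of freedom) with TMM scaling in edgeR 4.0.16 (limma 3.58.1, R 4.3.3), p adjusted by Benjamini-Hochberg over all genes kept; SEs come from the F statistic. Tables used Python 3.11.15. Of the fits, only edgeR's main one was run on simulated counts, which held no replicate effect. The alternatives named next and changes near 1.5-fold were not tested there. DESeq2 1.42.0, other scalings and filters, a GC and length correction, single libraries left out and a replicate block were alternatives. Loci and lengths come from GENCODE on GRCh37, and 83.8% of symbols matched 1 gene there. In TPC1 the differences between libraries numbered 1 and 3 correlated across genes at 0.496 to 0.696 between any 2 treatments, a sign of pairing from the data and the column numbers, not the labels, so blocked values are given where they change a call.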

Additional observations from a re-analysis of the deposited data

Results flagged for a closer look

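For 5 results the effect differed between the lines by a test of the difference itself, in edgeR's fit of all 16 libraries. The response of PPP1R15A in K1 less that in TPC1 was -1.80 on the log2 scale for the combination against DMSO and -1.26 for the combination against nutlin, and every alternative kept both calls. It started 4.49-fold higher in K1 under DMSO. The response of EIF2S1 to nutlin was 0.74 less negative in K1, a call that also stood under every alternative. For the combination, EIF2AK1 differed by 0.67, not called without TPC1 DMSO library 3 (0.57), and EIF2B5 by 0.59, not called under 7 of 24 alternatives. Line and culture medium go together, and their part in these differences cannot be told apart. The TPC1 libraries numbered 1 held at most 36896529 counts, where K1 reached 37161241, and those numbered 3 held at least 62853375. Each TPC1 group held both numbers, and the part of depth was not tested.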

How the results depend on the processing

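Over 14 comparisons of 10 genes and all alternatives, 2656 of 2700 values kept their side of the call, 17 lost it, 27 gained it and none with an adjusted p under 0.05 changed direction. The number of members called in the TPC1 interaction was 0, against 1 with no filter, with DESeq2, with the replicate block and with the block plus GC and length correction. For the combination effect in K1 minus TPC1 it was 3, against 5 with library size alone, and for the combination against nutlin in K1 minus TPC1 it was 1, against 2 with library size alone. Leaving out 1 library at a time gave 0 to 1 for GSK2830371 in TPC1, 0 to 1 for the TPC1 interaction, 1 to 2 for the nutlin effect in K1 minus TPC1 and 2 to 5 for the combination effect in K1 minus TPC1; the lone library of a group is then assumed to vary like the other groups. The cause of these shifts was not tested. The replicate block changed 1 other call, EIF2S1 in the combination effect in K1 minus TPC1 (0.59). In K1 the replicate differences of the 3 treated groups correlated at 0.146 to 0.376 with each other and at -0.357 to -0.288 with DMSO. The numbers thus did not run alike in DMSO and in the treated groups of K1, and how its libraries pair was not tested. With the block by number, the number of members called stayed as it was in the 5 K1 comparisons. With the 2 DMSO numbers crossed, an alternative chosen after seeing the data, the block called 1564, 443 and 2587 genes for nutlin, GSK2830371 and the combination against DMSO, against 1474, 355 and 2498 without a block, and the same numbers of members (0, 0 and 2). Several differences within 1.5-fold lost an adjusted p under 0.05 when 1 library was left out, and the following log2 values are examples. Without TPC1 DMSO library 3, EIF2AK1 under nutlin was at -0.23, and EIF2B1 and EIF2B4 under the combination were at -0.22 and -0.23. Without TPC1 nutlin library 1 EIF2AK1 was at -0.30, and without TPC1 combination library 1 EIF2B1 was at -0.25. In K1, EIF2AK1 under GSK2830371 was at 0.19 without DMSO library 2 or without GSK2830371 library 2. For the combination against nutlin, EIF2AK3 was at 0.33 without K1 combination library 1. By longest transcript in place of exon union, EIF2AK3 made up 4.51% and 9.19% of the summed kinase level per kilobase under DMSO in TPC1 and K1, and 4.68% and 9.52% by canonical transcript, an alternative added after seeing the data. With 2 libraries per group, differences near 1.5-fold are not settled by these data, whereas each of the 10 genes had at least 542 counts in every library.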
